A study of Mus musculus with 4 samples.

Results

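Interferon-stimulated genes are the genes that cells switch on when an interferon binds its receptor. The 43 genes described here were taken by symbol from a list of interferon-induced antiviral, sensing and GTPase genes, and each has 1 of the 17915 rows of the deposited gene table. All 43 were among the 13177 genes with enough counts to be tested. The list was not chosen from a difference between these libraries, although it was drawn up with earlier results of the same data known.

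The libraries came from a study of lung endothelial cells in which the activity of the alpha smooth muscle actin (aSMA) gene was recorded by a permanent colour change. All mice carried Cdh5-CreER, aSMA-LSL-Dre and NR1, received tamoxifen 5 times and were examined 6 weeks after transverse aortic constriction (TAC), a narrowing of the aorta that raises the pressure load on the heart. Cdh5-CreER is a tamoxifen-inducible recombinase driven by an endothelial cadherin gene, and NR1 is named in the genotype without further description. Cells without a record of aSMA activity are ZsGreen+ and cells with such a record are tdTomato+. Both groups thus had the same genotype and treatment, and no library of mice without TAC or tamoxifen enters this comparison. Bulk RNA sequencing gave 2 tdTomato+ and 2 ZsGreen+ libraries, numbered 1 and 2 in each colour. The labels do not say whether the replicates are separate mice, or whether a number marks anything shared by the colours, and a p-value here reflects only how far these 4 libraries scatter.

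Type I interferons act through the receptor chains Ifnar1 and Ifnar2 and the kinases Jak1 and Tyk2, which activate transcription factors such as Stat2. With Irf9, Stat2 is part of a complex that binds the interferon-stimulated response element (ISRE) in the promoters of target genes. Interferon gamma acts through Ifngr1, Ifngr2, Jak1 and Jak2, and its signal reaches promoters at the gamma-activated site (GAS). Many of the induced genes are also expressed at a low level without infection, and endothelial cells both respond to interferons and line the vessels through which virus and leukocytes enter the lung.

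Total counts lay between 17050673 and 18574737 per library. Endothelial markers were high in every library. Pecam1, an adhesion molecule of endothelial junctions, stood at 1809.0 to 2104.1 CPM (counts scaled to library size with TMM factors), and Cdh5 at 1112.3 to 2422.1 CPM. Markers of other cells were present too. The summed CPM of 14 macrophage markers was 5713.2 and 2689.9 in tdTomato+ libraries 1 and 2 and 3212.3 and 672.8 in ZsGreen+ libraries 1 and 2. None of these markers was at 0 in any library. In bulk RNA, fewer cells of a type and less RNA per cell cannot be told apart.

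The response element itself was visible in the promoters of these genes. In RefSeq promoter windows of GRCm38.p6, which run from 250 bases before to 50 bases after the start site, 33 of the 43 genes had an entry. The ISRE core, spelled GAAANNGAAA and searched on both strands, occurred in 18 of the 33 genes (54.5%), against 1079 of 27025 genes with a window (3.99%). The GAS, spelled TTCNNNGAA, which reads the same on both strands, occurred in 9 of the 33 (27.3%) against 2582 of 27025 (9.55%). In 7 genes both spellings were found. A match is a description of letters and not evidence that a factor binds there.

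Isg15, Oas1a and Gbp7 are shown in full because they were among the 6 genes with the smallest p for the shift between numbers described below. Capitals mark the bases covered by an ISRE core, and each window is written 5′ to 3′ in the direction of its gene. The windows lie at chr4:156200769-156201068 (minus strand) for Isg15, chr5:120907476-120907775 (minus strand) for Oas1a and chr3:142530086-142530385 (plus strand) for Gbp7. In Isg15, 3 overlapping matches form 1 stretch, and the last of them begins at position -66, counted from the start site with negative numbers before it. Oas1a holds 2 overlapping matches, the last at -14, and Gbp7 holds 1, at -53, with the core read on the opposite strand.
Isg15: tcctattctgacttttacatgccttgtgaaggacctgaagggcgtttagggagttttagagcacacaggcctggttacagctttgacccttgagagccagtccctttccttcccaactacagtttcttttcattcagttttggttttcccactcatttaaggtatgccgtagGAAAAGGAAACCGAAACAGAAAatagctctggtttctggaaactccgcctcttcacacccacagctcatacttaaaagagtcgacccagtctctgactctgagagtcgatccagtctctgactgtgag
Oas1a: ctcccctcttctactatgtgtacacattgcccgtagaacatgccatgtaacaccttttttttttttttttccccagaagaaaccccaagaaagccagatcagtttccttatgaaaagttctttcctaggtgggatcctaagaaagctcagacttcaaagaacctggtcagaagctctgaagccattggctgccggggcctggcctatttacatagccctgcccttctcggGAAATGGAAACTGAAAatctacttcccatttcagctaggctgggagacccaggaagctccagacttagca
Gbp7: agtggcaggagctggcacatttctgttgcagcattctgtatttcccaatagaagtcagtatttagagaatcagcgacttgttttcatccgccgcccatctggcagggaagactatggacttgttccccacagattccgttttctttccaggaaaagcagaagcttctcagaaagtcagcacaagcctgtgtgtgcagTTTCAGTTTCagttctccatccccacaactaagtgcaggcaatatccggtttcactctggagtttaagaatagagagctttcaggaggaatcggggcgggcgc
Ifi204, Usp18 and Oas2 were the other genes chosen by the same rule, but they had no window entry, so their promoters were not searched.

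The same core with 8 bases on each side is shown for genes of 4 families, because the letters between the repeated GAAA (or TTTC) blocks and beyond them differ from gene to gene. Ifit1, Ifit3 and Ifitm3 each have 2 separate stretches, of which only the last is given. Bst2 has 2 overlapping matches, and part of the lower-case flank before its last core belongs to the other match. The cores shown for Ifit1 and Ifit3 begin at -85 and -122. Oas3 has its core at -75, Ifitm2 at -46, Gbp2 at -59, Gbp5 at -165 and Bst2 at -124. The Ifitm3 site shown lies after the start, at position 20.
Ifit1: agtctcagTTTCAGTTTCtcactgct
Ifit3: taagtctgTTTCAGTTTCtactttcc
Oas3: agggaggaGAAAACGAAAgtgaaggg
Ifitm2: accaacagGAAAAGGAAAttgctaga
Ifitm3: acttctgaGAAACCGAAActgccgca
Bst2: aggaaaatGAAACTGAAAggctgcag
Gbp2: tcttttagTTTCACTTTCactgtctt
Gbp5: ttgtgtagTTTCAATTTCagtttaga
The windows are at chr19:34640639-34640938 and chr19:34583279-34583578 on the plus strand for Ifit1 and Ifit3, and at chr5:120777610-120777909 on the minus strand for Oas3. Those of Ifitm2 and Ifitm3 are at chr7:140955912-140956211 and chr7:141010695-141010994 on the minus strand, and that of Bst2 is at chr8:71537423-71537722 on the minus strand. Gbp2 and Gbp5 have theirs at chr3:142620413-142620712 and chr3:142496684-142496983 on the plus strand.

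The genes were expressed in all 4 libraries at very unequal levels. On the TPM scale, which corrects for gene length, 5 of the 43 had a mean of at least 100 TPM, 28 had at least 10 TPM, and the median gene had 14.7 TPM. Ifitm3 (7004.8 TPM) and Ifitm2 (5265.5 TPM), small membrane proteins that block the fusion of viruses with endosomes, together held 87.7% to 89.6% of the summed TPM. Bst2, also called tetherin, which holds budding virus on the cell surface, followed with 460.1 TPM, then Ifi27 with 262.9 TPM and Ifi35 with 110.1 TPM. At the other end Oas3 had a mean of 0.363 TPM and was the only one below 1 TPM. For 16 of the 43 genes, among them Ifit1, Ifit3, Oas1a, Oas3, Ifitm2, Gbp7 and Ifi204, some estimated counts were not whole, so that reads may be divided between them and a similar gene.

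**Figure D1:**
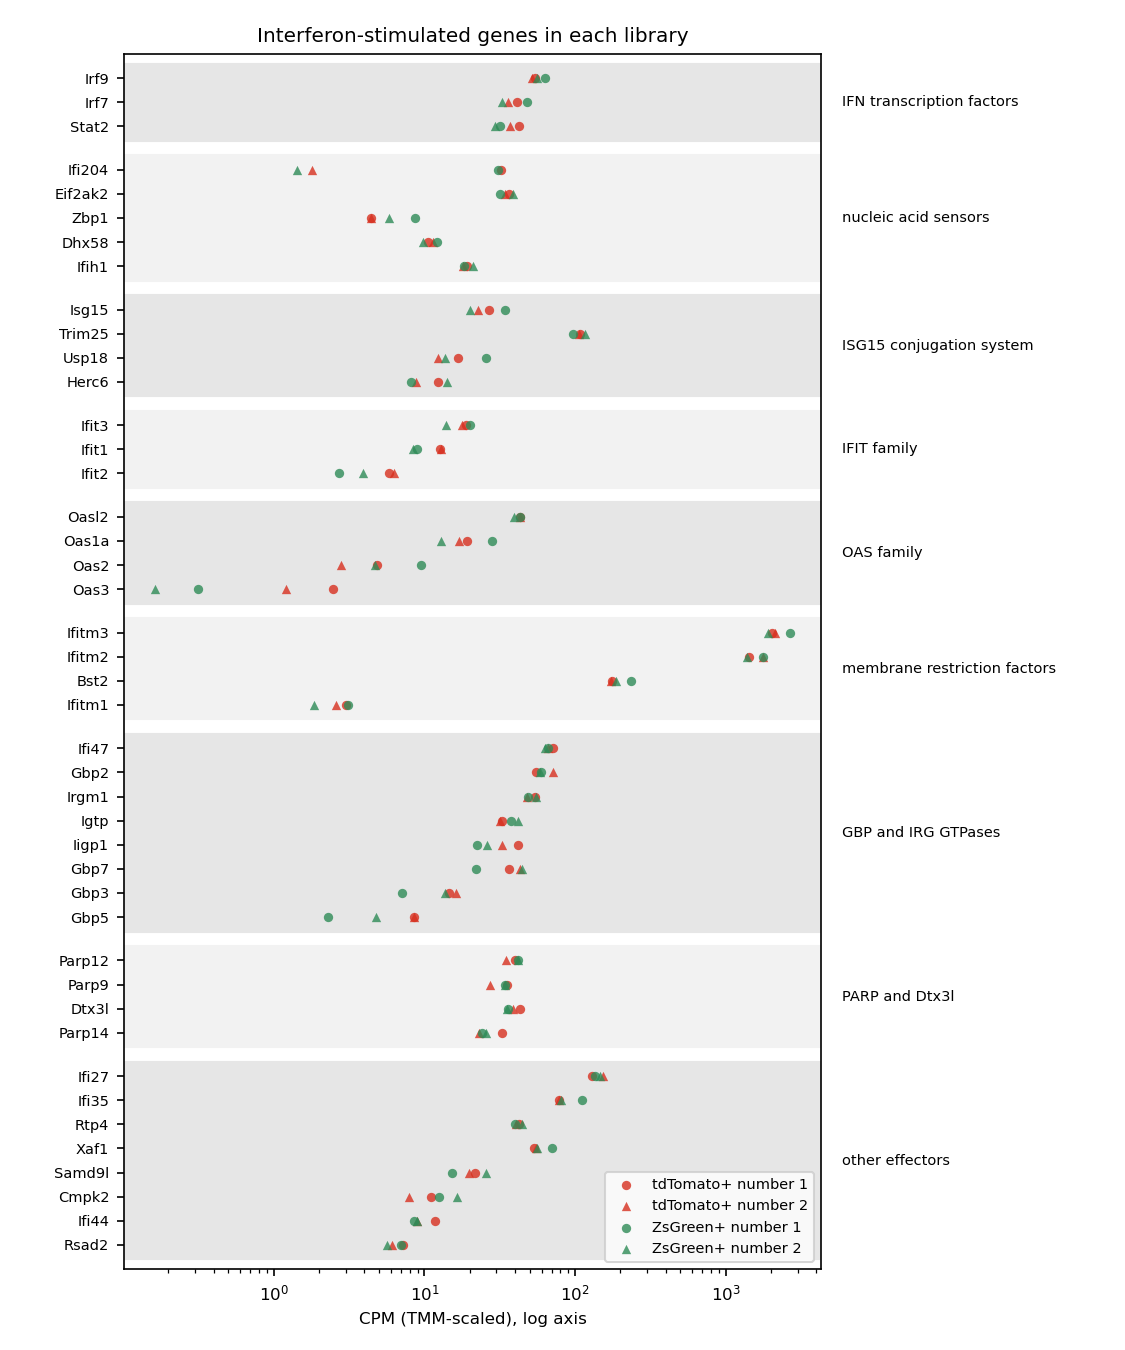
Level of each of the 43 interferon-stimulated genes in CPM (log axis) in the 4 libraries, grouped by role; red is tdTomato+, green is ZsGreen+, circles are libraries numbered 1 and triangles those numbered 2. Most genes have 4 points close together, Ifi204 has its 2 triangles far below its 2 circles, and Oas3 has its red points above its green ones.

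The first comparison asked whether cells with a record of aSMA activity differed from cells without it. None of the 43 genes passed the test: edgeR's quasi-likelihood test with Benjamini-Hochberg adjustment over all genes called 40 of 13177 genes at an adjusted p under 0.05 (0.304%), 22 higher and 18 lower in tdTomato+ cells, and 0 of the 43. DESeq2, which called 330 of the 13177 genes, and limma-voom, which called 33, also called 0 of the 43. At an unadjusted p under 0.05 edgeR had 3 of the 43 (6.98%), against 8.77% of all genes. With 1 library left out the count over all genes was 17 without tdTomato+ 1, 4 without tdTomato+ 2, 304 without ZsGreen+ 1 and 26 without ZsGreen+ 2, and it was 0 of the 43 each time.

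The differences were small on the whole. The median log2 fold change of tdTomato+ over ZsGreen+ was 0.00 over the 43 genes and -0.01 over all genes tested. The interquartile range was -0.16 to 0.17, against -0.19 to 0.27 for all genes. In 29 of the 43 (67.4%) the 95% interval of the log2 fold change lay within -1 and 1, against 58.7% of all genes, so a change of that size is outside the interval for these genes and inside it for the other 14. The highest library was under 1.5 times the lowest in 26 genes (60.5%), against 48.7% of all genes. In 23 genes the fitted value was above 0 and in 20 below. On log2(TPM + 1), where the median of all genes itself moved to 0.12, 32 of the 42 genes with at least 1 TPM in 2 libraries were above 0, with a median of 0.15.

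Both tdTomato+ libraries stood above both ZsGreen+ libraries for 9 of the 43 genes (20.9%), close to the 19.9% of all genes. These were Stat2, Ifit1, Ifit2, Oas3, Gbp3, Gbp5, Iigp1, Ifi47 and Dtx3l. Both stood below for 8 (18.6%, against 18.2% of all genes): Irf9, Zbp1, Bst2, Igtp, Parp12, Cmpk2, Xaf1 and Ifi35. Within library number 1 the median difference between colours over the 43 genes was 0.04 in log2 CPM, and within number 2 it was 0.05.

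**Figure D2:**
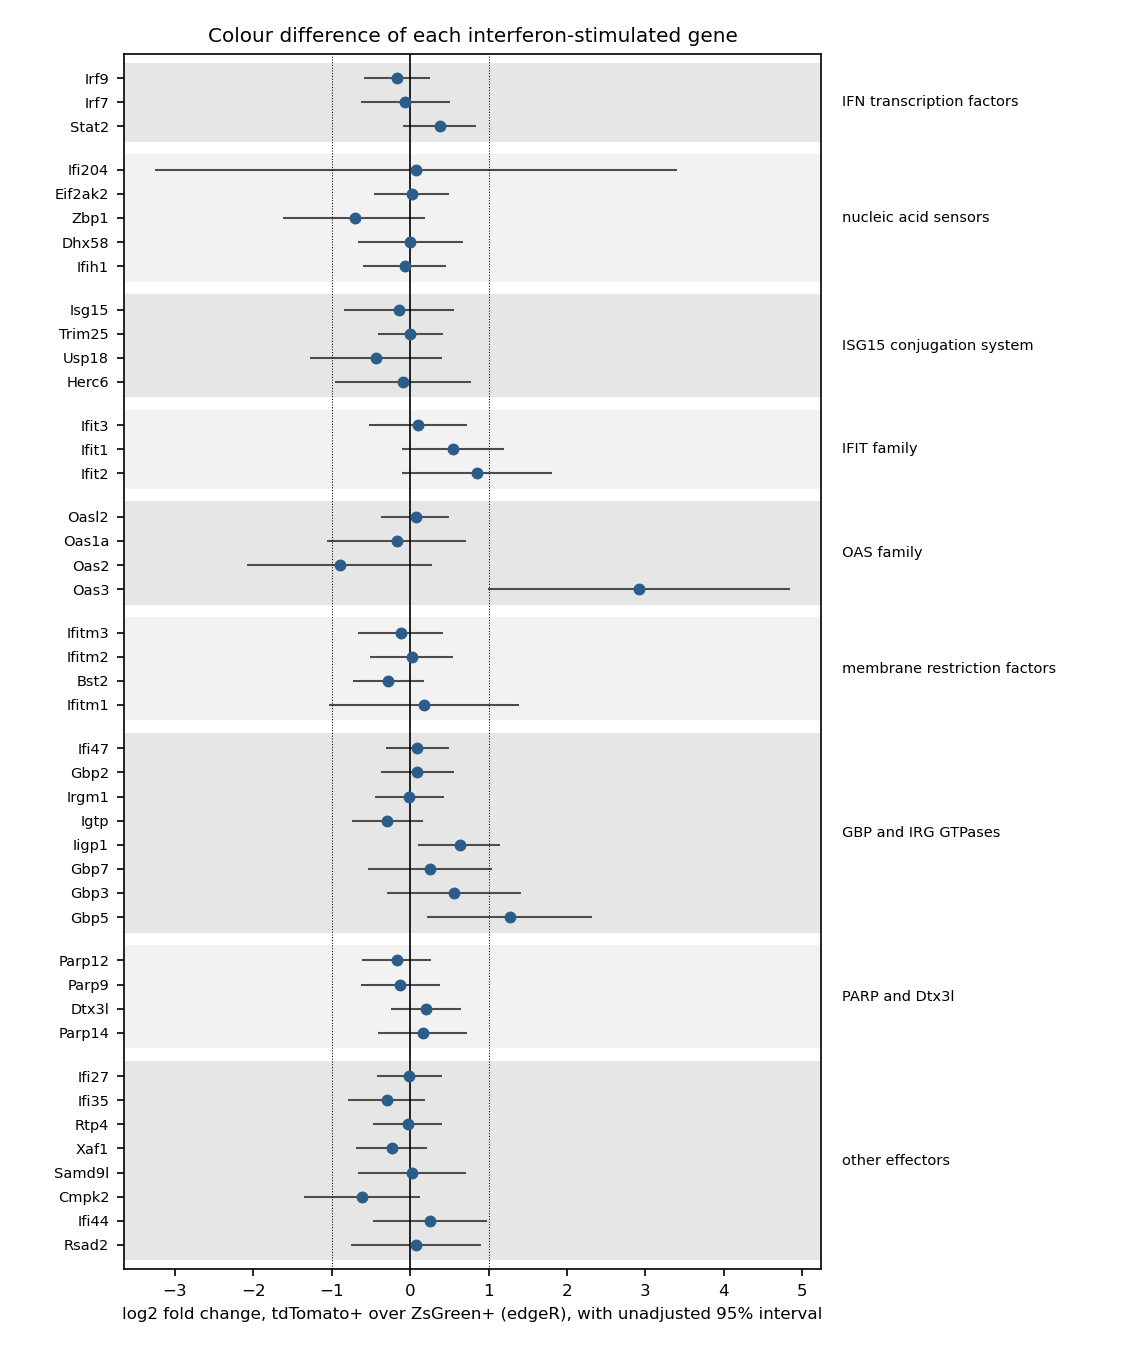
Log2 fold change of tdTomato+ over ZsGreen+ cells for each gene (point) with its unadjusted 95% interval (line), grouped by role; dotted lines mark -1 and 1. Of the 43 points 41 lie within the dotted lines, and Oas3 (2.92) and Gbp5 (1.27) lie beyond them.

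Among the transcription factors of the pathway, Irf9, the DNA-binding part of the type I interferon complex, measured 54.2 and 51.5 CPM in the tdTomato+ libraries against 63.1 and 56.1 CPM in the ZsGreen+ libraries. Both tdTomato+ libraries were the lower ones, by a log2 fold change of -0.17 (SE 0.18, edgeR adjusted p = 0.884). Irf7, the factor that amplifies interferon production, measured 41.2 and 35.9 CPM against 47.8 and 32.5 CPM. Its colours overlapped (log2 fold change -0.06, SE 0.24), while both libraries numbered 2 were below both numbered 1. Stat2 had a log2 fold change of 0.38 (SE 0.20) with no overlap of the colours.

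The nucleic acid sensors bind viral RNA or DNA in the cell. Eif2ak2, the kinase PKR that stops translation when it binds double-stranded RNA, measured 36.7 and 34.4 CPM in the tdTomato+ libraries against 31.8 and 38.5 CPM in the ZsGreen+ libraries. The colours overlapped, and the log2 fold change was 0.02 (SE 0.20, 95% interval -0.46 to 0.49). Ifih1 (MDA5) and Dhx58 (LGP2), helicases that bind viral RNA, had colour values of -0.07 and 0.00. Zbp1, a sensor of left-handed nucleic acid that can start cell death, had -0.71 (SE 0.38), with 4.40 and 4.41 CPM against 8.67 and 5.81 CPM. The remaining sensor, Ifi204, differed by library number and is described below.

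The ISG15 system attaches the ubiquitin-like protein ISG15 to other proteins. Isg15 itself measured 26.8 and 22.7 CPM in the tdTomato+ libraries against 34.5 and 20.2 CPM in the ZsGreen+ libraries, so the ZsGreen+ libraries held both the highest and the lowest value. Usp18, the protease that removes ISG15 and also damps the interferon receptor, was likewise highest in ZsGreen+ library 1, with 16.6 and 12.4 CPM against 25.8 and 13.6 CPM. Trim25, a ubiquitin ligase that activates RIG-I, was steadier, at 107.9 and 105.6 CPM against 96.7 and 116.3 CPM. The colour values were -0.14 (SE 0.29) for Isg15, -0.44 (SE 0.35) for Usp18 and 0.00 (SE 0.17) for Trim25, and Herc6, the mouse ISG15 ligase, had -0.09 (SE 0.37).

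IFIT proteins bind viral RNA that lacks the host's cap marks, and the 3 genes lie in 1 cluster on chromosome 19. Ifit1 measured 12.7 and 12.8 CPM in the tdTomato+ libraries against 8.99 and 8.44 CPM in the ZsGreen+ libraries. Ifit2 measured 5.83 and 6.25 CPM against 2.72 and 3.94 CPM. For both genes the colours did not overlap, and neither passed the test, with log2 fold changes of 0.55 (SE 0.27, edgeR adjusted p = 0.671) and 0.85 (SE 0.40, edgeR adjusted p = 0.632). Ifit3, at 18.9 and 17.7 CPM against 20.2 and 14.0 CPM, overlapped (0.10, SE 0.26). The family median was 0.55, and all 3 values were above 0 in each of the alternative scalings, while without ZsGreen+ library 2 only 2 of the 3 were.

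The OAS family makes oligoadenylates that activate RNase L, which cuts viral and cellular RNA. All 4 genes lie on chromosome 5. Oas3, the largest enzyme of the family, had the largest colour value of the 43 genes, from 2.48 and 1.21 CPM in the tdTomato+ pair and 0.316 and 0.164 CPM in the ZsGreen+ pair. The tdTomato+ libraries were the higher ones, by a log2 fold change of 2.92 (SE 0.81, 95% interval 0.99 to 4.84, edgeR adjusted p = 0.293). The estimated counts behind these values were 45.0 and 22.8 in tdTomato+ cells and 5.1 and 3.0 in ZsGreen+ cells.

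The other synthetase genes had values nearer to 0 or below it. Oas2 measured 4.84 and 2.78 CPM in the tdTomato+ libraries against 9.55 and 4.71 CPM in the ZsGreen+ libraries, with a colour value of -0.90 (SE 0.50) and overlapping groups. Oas1a, an active synthetase, measured 19.3 and 17.0 CPM against 28.2 and 12.8 CPM (-0.17, SE 0.37). Oasl2, which is related to the synthetases and carries ubiquitin-like domains, was the most even, at 43.2 and 43.4 CPM against 43.4 and 39.2 CPM (0.07, SE 0.18). The family's colour values thus ran from -0.90 to 2.92, with 2 above and 2 below 0.

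The membrane proteins were the most abundant. Ifitm3 measured 2041.7 and 2137.3 CPM in the tdTomato+ libraries against 2652.1 and 1901.7 CPM in the ZsGreen+ libraries. Ifitm2 measured 1431.9 and 1771.5 CPM against 1761.6 and 1392.9 CPM. For both the colours overlapped, with log2 fold changes of -0.12 (SE 0.23) and 0.02 (SE 0.22). The number 2 library was higher than number 1 for Ifitm2 in tdTomato+ cells (0.31 in log2 CPM) and lower in ZsGreen+ cells (-0.34). Bst2 had a colour value of -0.28 (SE 0.19), and Ifitm1, at 1.86 to 3.10 CPM, had 0.18 (SE 0.51).

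The guanylate-binding proteins and immunity-related GTPases attack membranes around intracellular microbes and are typical targets of interferon gamma. In 6 of these 8 genes the colour value was above 0, with a median of 0.17, and it was 7 of 8 with upper quartile factors or on log2(TPM + 1), which also raised the median of all genes to 0.04 and 0.12, and 5 of 8 without ZsGreen+ library 1. Gbp5, which also takes part in inflammasome activation, measured 8.47 and 8.56 CPM in the tdTomato+ libraries against 2.28 and 4.77 CPM in the ZsGreen+ libraries. Both tdTomato+ libraries were above both others, by 1.27 (SE 0.44, 95% interval 0.21 to 2.32, edgeR adjusted p = 0.453). Iigp1 measured 41.8 and 32.9 CPM against 22.5 and 25.9 CPM, again without overlap, by 0.63 (SE 0.22, edgeR adjusted p = 0.453).

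The more abundant GTPases were closer together. Ifi47 measured 71.6 and 66.4 CPM in the tdTomato+ libraries against 65.9 and 63.3 CPM in the ZsGreen+ libraries (0.09, SE 0.17). Gbp2 measured 55.1 and 71.1 CPM against 59.5 and 58.8 CPM (0.09, SE 0.19). Gbp7 measured 36.3 and 42.8 CPM against 22.1 and 44.5 CPM (0.25, SE 0.33), so that ZsGreen+ library 1 stood below the other 3. Gbp3 had 0.56 (SE 0.36), Irgm1 -0.01 (SE 0.18) and Igtp -0.29 (SE 0.19). Gbp2, Gbp3, Gbp5 and Gbp7 are neighbours on chromosome 3.

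Parp9 and Dtx3l form a complex of an ADP-ribosyltransferase and a ubiquitin ligase, and Parp12 and Parp14 are related ADP-ribosyltransferases. Parp12 measured 39.7 and 34.7 CPM in the tdTomato+ libraries against 42.0 and 42.0 CPM in the ZsGreen+ libraries (-0.17, SE 0.19). Parp9 measured 35.2 and 27.4 CPM against 34.1 and 34.1 CPM (-0.13, SE 0.21). Both were lowest in tdTomato+ library 2. Dtx3l and Parp14 had 0.20 (SE 0.19) and 0.16 (SE 0.24). The annotated spans of Dtx3l (chr16:35926515-35939027) and Parp9 (chr16:35938470-35972621) overlap at their ends, and the sources used here do not say whether strand was used in counting.

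Of the remaining effectors, Ifi27, a small hydrophobic protein, measured 128.9 and 152.4 CPM in the tdTomato+ libraries against 135.5 and 147.3 CPM in the ZsGreen+ libraries (-0.01, SE 0.17). Ifi35 measured 77.8 and 78.0 CPM against 111.6 and 80.2 CPM (-0.30, SE 0.21). Cmpk2, a mitochondrial nucleotide kinase, measured 11.1 and 7.88 CPM against 12.5 and 16.4 CPM. Its tdTomato+ libraries were both lower, by a log2 fold change of -0.61 (SE 0.31, edgeR adjusted p = 0.690). Its neighbour Rsad2 on chromosome 12, the antiviral enzyme viperin, had 0.08 (SE 0.35). Xaf1, Rtp4, Ifi44 and Samd9l had values from -0.23 to 0.25.

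The second comparison set the libraries numbered 2 against those numbered 1 with the colour as a term in the fit. It describes a difference that the labels do not explain. edgeR called 691 genes, 362 lower (2.75%) and 329 higher (2.5%) in number 2, and of the 43 genes it called 1 lower, Ifi204, and 0 higher. DESeq2 called 350 genes. At an unadjusted p under 0.05 it was 6 of the 43 (14.0%), against 13.9% of all genes.

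The median log2 fold change of number 2 over number 1 was -0.10 over the 43 genes and -0.01 over all genes, with 30 values below 0 and 13 above. On log2(TPM + 1) the median was -0.01 with 23 below and 19 above, beside 0.07 for all genes. Both libraries numbered 2 were below both numbered 1 for 9 of the 43 (20.9%), against 17.9% of all genes: Irf7, Ifi204, Isg15, Usp18, Ifit3, Oas1a, Oas2, Ifitm1 and Rsad2. Both were above for 2 (4.65%), Gbp7 and Ifi27, against 18.4% of all genes. Taking each colour alone, number 2 was the lower library in both colours for 15 genes (34.9%, against 29.0% of all genes) and the higher one in both for 5 (11.6%, against 27.9%). In 14 genes number 2 was lower in tdTomato+ and higher in ZsGreen+ cells, and in 9 the reverse.

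**Figure D3:**
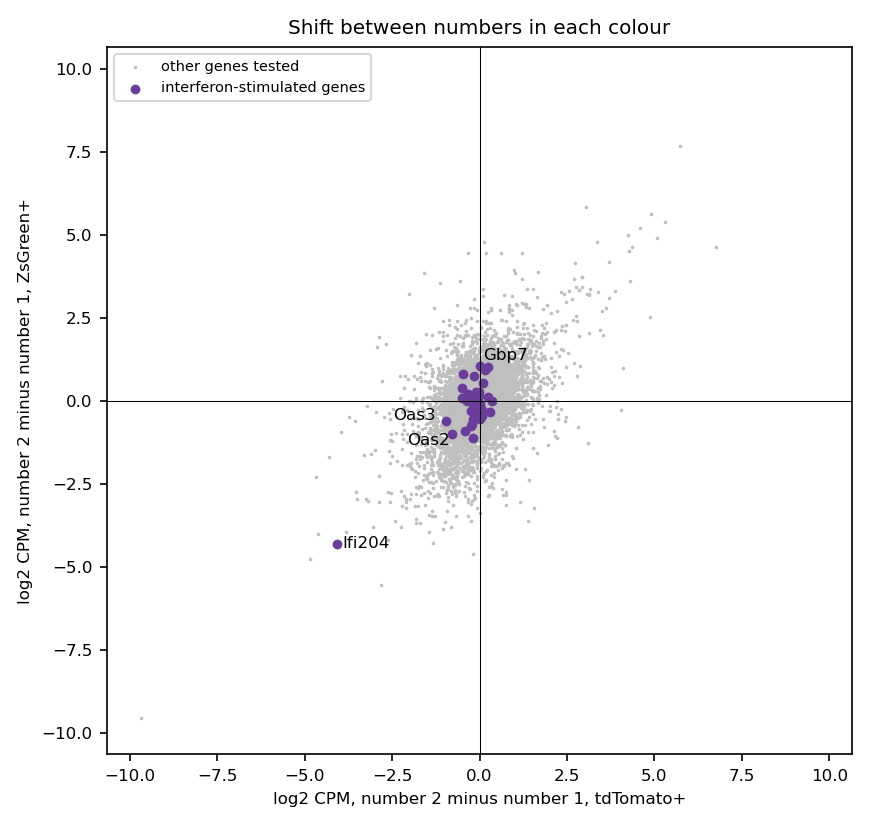
Difference in log2 CPM of library 2 minus library 1, within tdTomato+ cells (horizontal) and within ZsGreen+ cells (vertical), for the 43 interferon-stimulated genes (purple) and the other genes tested (grey). The purple points lie near the centre, except Ifi204 at -4.08 and -4.33.

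Ifi204, a DNA sensor of the interferon-inducible p200 family that signals through STING, stood at 32.0 CPM in tdTomato+ library 1 and 30.7 CPM in ZsGreen+ library 1. In the libraries numbered 2 it stood at 1.79 CPM and 1.42 CPM. The levels within a number were nearly alike in the 2 colours, and the colour value was 0.08 (SE 1.40, 95% interval -3.25 to 3.41). Between numbers the log2 fold change was -4.29 (SE 0.33, 95% interval -4.94 to -3.63, edgeR adjusted p = 1.55e-34), a 19.5-fold lower level in number 2. The call ended without tdTomato+ library 1 (log2 fold change -4.25, edgeR adjusted p = 0.119) and without ZsGreen+ library 1 (-4.32, edgeR adjusted p = 0.271). Both of these fits had no colour term and set 1 library against 2.

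The gene spans chr1:173747293-173767069, inside a cluster of related p200 genes. The estimated counts of Ifi204 were not whole numbers in any of the 4 libraries, which happens when ambiguous reads are split between related genes, so its level and those of its relatives are uncertain. Mndal, the next gene of the cluster, stood at 17.3 and 25.4 CPM in tdTomato+ libraries 1 and 2 and at 12.3 and 29.7 CPM in ZsGreen+ libraries 1 and 2. Mndal was thus higher in both libraries numbered 2, by 0.90 (SE 0.26, edgeR adjusted p = 0.0156), the opposite direction. Ifi202b, another p200 gene, had -2.83 (SE 0.94, edgeR adjusted p = 0.0525) at 0.11 to 2.09 CPM.

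In the comparison of numbers edgeR called no other p200 gene within 500 kb. Ifi207, on the other side of Ifi204, measured 6.44 and 5.15 CPM in the tdTomato+ libraries against 1.27 and 0.493 CPM in the ZsGreen+ libraries, with -0.69 (SE 0.51) for number and 2.72 (SE 0.59, edgeR adjusted p = 0.176) for colour. DESeq2 called the colour difference of Ifi207 (DESeq2 adjusted p = 0.00544), as did edgeR without ZsGreen+ library 1 (3.54, edgeR adjusted p = 0.0404). Ifi203 measured 30.3 and 20.7 CPM against 15.9 and 22.1 CPM, with a number value of -0.05 (SE 0.26). Ifi208 and Ifi213 had number values of 0.19 and 0.20. Of the genes of other families in the window, Ackr1, a chemokine-binding receptor of venules, was lower in number 2 by a log2 fold change of -1.81 (SE 0.23, edgeR adjusted p = 8.27e-13), and Cadm3, whose span overlaps that of Ackr1, by -1.16.

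**Figure D4:**
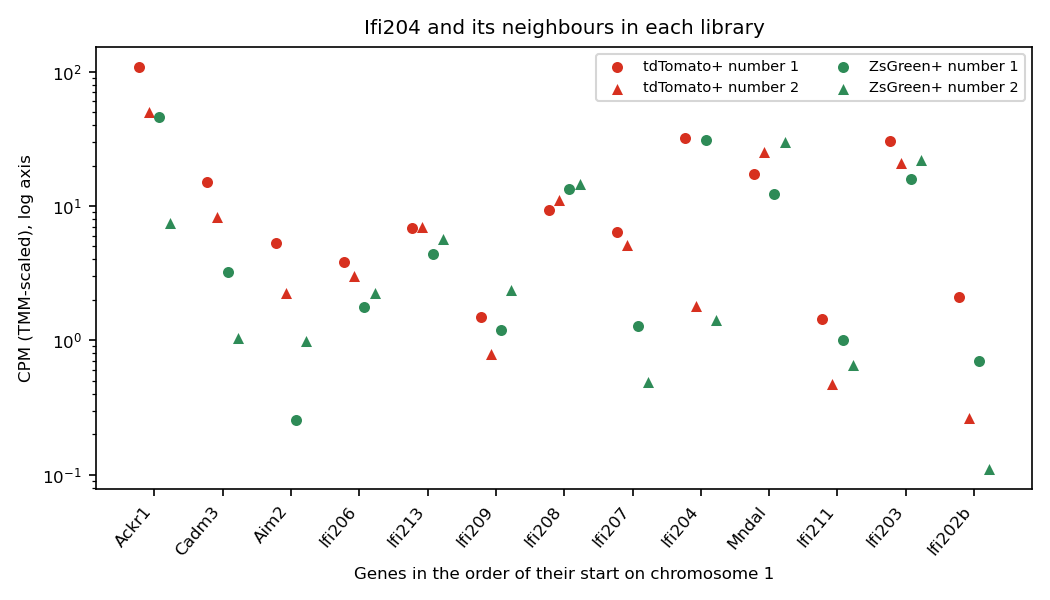
CPM (log axis) of Ifi204 and the 12 other genes tested within 500 kb, in order along chromosome 1, in the 4 libraries; red is tdTomato+, green is ZsGreen+, circles are number 1 and triangles number 2. Only Ifi204 has both triangles more than 10-fold below both circles, and Mndal beside it has both triangles above both circles.

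RNA of macrophages and some other leukocytes also differed between numbers, though not in every leukocyte list. Of the 14 macrophage markers edgeR called 12 lower and 1 (Marco) higher in number 2, with a median log2 fold change of -1.52, and of 8 pan-leukocyte genes it called 7 lower. Lyz2, the lysozyme of macrophages and the most abundant of these markers, stood at 3952.6 and 1968.6 CPM in tdTomato+ libraries 1 and 2 and at 2269.2 and 469.1 CPM in ZsGreen+ libraries 1 and 2. The summed macrophage markers were 2689.9 CPM in tdTomato+ library 2 and 3212.3 CPM in ZsGreen+ library 1. In the same libraries the pan-leukocyte genes summed to 464.5 and 506.5 CPM, and B cell markers to 5.2 and 12.6 CPM. All 12 immediate early genes were also lower in both libraries numbered 2, with 5 called and a median of -0.68, and 8 of 14 circadian clock genes were called higher and 2 lower. The part of any of these in the shift of single interferon-stimulated genes was not tested.

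After Ifi204 the smallest p between numbers belonged to Gbp7 (0.62, SE 0.23, edgeR adjusted p = 0.110), the only 1 of these to be higher in number 2. It was followed by Oas1a (-0.66, SE 0.27, edgeR adjusted p = 0.165), Usp18 (-0.67, SE 0.27, edgeR adjusted p = 0.172), Oas2 (-0.91, SE 0.40, edgeR adjusted p = 0.221) and Isg15 (-0.51, SE 0.25, edgeR adjusted p = 0.329). For Oas1a the difference lay mostly in ZsGreen+ cells, at -1.13 in log2 CPM against -0.19 in tdTomato+ cells. Isg15 (-0.77 and -0.24) and Usp18 (-0.92 and -0.41) had the same order, and Gbp7 had it in the other direction (1.01 and 0.24). Whether the shift differed between colours could not be tested, since such a fit leaves no residual degree of freedom.

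By role, the median number value was -0.79 for the OAS genes, -0.20 for the membrane proteins, -0.19 for the ISG15 system, -0.16 for the transcription factors, -0.14 for Parp and Dtx3l genes, -0.10 for the sensors and the other effectors, -0.04 for the IFIT genes and 0.12 for the GTPases. All 4 OAS genes were below 0, although on log2(TPM + 1) only 2 of the 3 with enough signal were. The OAS median was -0.50 without tdTomato+ library 1, -0.38 without ZsGreen+ library 1 and -0.35 without ZsGreen+ library 2, with 3 of 4 below 0 in the first and last of these. ZsGreen+ library 1 was the highest library for 15 of the 43 genes (34.9%, against 29.3% of all genes) and ZsGreen+ library 2 the lowest for 16 (37.2%, against 27.8%). The summed level was 14054.2 and 14642.3 TPM in tdTomato+ libraries 1 and 2 and 13901.0 and 12718.9 TPM in ZsGreen+ libraries 1 and 2. Without Ifitm2 and Ifitm3 it was 1641.3, 1522.2, 1513.5 and 1558.4 TPM.

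The rest of the pathway was taken from a list of 113 further genes, of which 101 had a row and 93 were tested. By colour edgeR called 0 of the 93, with 9 at an unadjusted p under 0.05 (9.68%, against 8.77% of all genes). DESeq2 called 2 of the 93, Ifi207 and Ciita, beside 330 of all 13177 genes. By number edgeR called 2 higher (2.15%, against 2.5% of all genes) and 5 lower (5.38%, against 2.75%). Of 10 interferon genes 4 had a row and none had enough counts to be tested. Of these 4, 3 were at 0 in all 4 libraries, and Ifnb1, interferon beta, had 0.055 CPM in tdTomato+ library 1 alone. A count of 0 allows up to 3 counts, or 0.157 to 0.19 CPM in these libraries, by counting error alone.

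Of 9 receptors and kinases 8 had enough counts to be tested, all but Ifnlr1, and 0 of the 8 were called in either comparison. By colour 4 of the 8 had values above 0 and 4 below. Ifnar2 measured 204.7 and 188.0 CPM in the tdTomato+ libraries against 244.1 and 210.5 CPM in the ZsGreen+ libraries. Ifngr1 measured 245.1 and 227.2 CPM against 262.2 and 298.4 CPM. Their colour values were -0.21 (SE 0.18) and -0.25 (SE 0.18).

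Irf1, a factor induced by interferon gamma that also binds the response element, was the most abundant pathway gene called by number. It stood at 529.8 and 298.3 CPM in tdTomato+ libraries 1 and 2 and at 636.3 and 276.4 CPM in ZsGreen+ libraries 1 and 2. Irf1 fell by 1.02 on the log2 scale in number 2 (SE 0.23, edgeR adjusted p = 0.000606), alongside the immediate early genes given above. Cxcl10, a chemokine that attracts T cells, stood at 20.5 and 10.9 CPM and at 11.5 and 3.18 CPM, and had -1.35 (SE 0.32, edgeR adjusted p = 0.000997).

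Irf5 (-2.11, edgeR adjusted p = 1.68e-05) and the phosphatase Ptpn6 (-1.20, edgeR adjusted p = 0.000945), which are typical of leukocytes, were lower in number 2. Most of the macrophage and pan-leukocyte markers given above were lower too, and their part in this was not tested. Ifi27l2a, a relative of Ifi27, was lower by -0.97 (edgeR adjusted p = 0.00721), from 17.3 to 13.2 CPM in tdTomato+ and from 46.8 to 16.3 CPM in ZsGreen+ cells. Trim21, a cytosolic antibody receptor, was higher in number 2 by 2.06 (edgeR adjusted p = 0.00127), from 1.05 to 6.62 CPM and from 1.77 to 4.98 CPM. With Mndal these were the 7 pathway genes called. In a fit without the colour term none of the 7 was called.

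Of the 16 genes of antigen presentation, many of them induced by interferon gamma, 14 had a colour value below 0, and edgeR called none. The median of the 16 was -0.13, against -0.01 for all genes. On log2(TPM + 1) 10 of the 16 were above 0, with a median of 0.02 against 0.12 for all genes. The count above 0 thus depended on the scale, while the median was below that of all genes on both scales. The count also depended on 1 library. Without ZsGreen+ library 1, 8 of the 16 were above 0 and 8 below, with a median of 0.00 against 0.01 for all genes. With any other library left out, 12 to 15 were below 0. Ciita, the factor that drives class II genes, measured 6.60 and 5.67 CPM in the tdTomato+ libraries against 12.8 and 18.2 CPM in the ZsGreen+ libraries (-1.34, SE 0.32, edgeR adjusted p = 0.215). DESeq2 called Ciita by colour (-1.35, DESeq2 adjusted p = 0.0231). Gbp4, a further guanylate-binding protein, measured 29.2 and 26.4 CPM against 12.2 and 15.9 CPM. Its colour value was 0.98 (SE 0.24, edgeR adjusted p = 0.226), the same direction as in Gbp5. Macrophage markers also had colour values above 0, 14 of 14 with a median of 1.05 and none called. The colours overlapped for most of them, and both tdTomato+ libraries stood above both ZsGreen+ libraries for only 3 of the 14. Other marker lists also had median colour values away from 0. The median was 1.47 for venous markers (2 called higher) and 0.93 for arterial markers (1 called higher). It was 1.27 for fibroblast, 0.96 for alveolar type 2, 0.97 for monocyte and neutrophil and 0.87 for pan-leukocyte markers, with 0 called in each list. It was -2.03 for lymphatic markers (3 called lower) and -1.01 for aerocyte capillary markers (1 called lower). The part of any of these in the values of Gbp4 and Gbp5 was not tested.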

How the data were processed

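Per the labels' protocols, an RNeasy Micro kit extracted the RNA, a Discover-sc kit amplified less than 4 µL of it, and a TruePrep kit made the sequencing libraries. Molecular identifiers are not mentioned, so a count is not a molecule. RSEM 1.3.1, DESeq2 1.4.5 and the builds mm10 and GRCm38 are named in the submitters' processing notes; aligner and strand setting are not given there. The authors deposited estimated counts and TPM per gene and library. The estimated counts were not whole for 16.2% to 17.9% of values and were rounded to whole numbers here. A further 8 columns of per-sample values were not used.

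edgeR 4.0.16 under R 4.3.3 (two-sided quasi-likelihood F-test, TMM factors, filterByExpr with a minimum count of 10) compared the colours over 4 libraries and, with colour as a term, the numbers. A gene was called when its Benjamini-Hochberg adjusted p over 13177 genes was under 0.05. SE was computed as |log2 fold change| divided by √F. The biological coefficient of variation was 26.1% for colour, with 2 residual degrees of freedom, and 18% for number, with 1. No permutation p is given, because with 2 libraries on each side the smallest exact two-sided value is 0.333. log2 CPM used a prior count of 2.

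Given in full were the 2 genes of each role with the highest mean TPM, the 6 with the smallest p in each comparison and any called gene. Stat2, Zbp1 and others given more briefly were named to account for every gene. Genes of the pathway lists were named when called, or among up to 3 per list with the smallest p; Ifnar2, Ifngr1, Cdh5 and the neighbours of Ifi204 were chosen after their values were seen. The members and lists were chosen with earlier results of these data known. Gene spans and promoter windows are from RefSeq (GRCm38.p6). The scripts were tested on simulated counts with known changes. By colour 27.3% of 2-fold and 90.7% of 4-fold changes were called, and by number 36% and 92%. A 2-fold change was thus mostly missed. Of unchanged genes 55 of 38309 were called by colour and 118 of 38336 by number. The latter stood beside 54, 138, 147 and 150 correct calls by number at 2-, 4-, 8- and 16-fold, so false calls by number were not rare. The alternatives comprised DESeq2 1.42.0, limma-voom (limma 3.58.1), RLE or upper quartile factors, no filter, a mean of at least 1 CPM, limma on log2 TPM plus 1 or 0.1, a replicate block, no colour term and leaving out each library.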

Additional observations from a re-analysis of the deposited data

How the results depend on the processing

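Ifi204, the 1 gene of the 43 that was called, kept its sign under every alternative run. With 2 libraries per group the 95% intervals of 14 of the 43 colour values reach beyond a log2 fold change of -1 or 1. By colour, the number of genes called (40) became 330 with DESeq2, 128 without a filter, 22 on log2(TPM + 0.1), 0 on log2(TPM + 1) without a filter and 4 to 304 with 1 library left out. Of the 93 pathway genes DESeq2 called 2, and leaving out 1 library gave 0 to 3. The median log2 fold change of the 43 genes by colour was 0.00 with RLE factors and with DESeq2, 0.05 with upper quartile factors, 0.02 with limma-voom and 0.01 with a mean of at least 1 CPM. It was 0.15, 0.16 and 0.15 on log2(TPM + 1), log2(TPM + 0.1) and log2(TPM + 1) without a filter, where the median of all genes was 0.12, 0.13 and 0.10, and -0.06 to 0.12 with 1 library left out. By number, the count over all genes (691) became 350 with DESeq2, 86 on log2(TPM + 1) without a filter, 17 without the colour term, 1 without tdTomato+ 1, 451 without tdTomato+ 2, 0 without ZsGreen+ 1 and 152 without ZsGreen+ 2. The count for the 43 genes (1) was 0 to 1 with 1 library left out, and that for pathway genes (7) became 1 on log2(TPM + 1) without a filter, 0 without the colour term and 0 to 3 with 1 library left out. The median of the 43 genes by number was -0.01 on each of the 3 log2 TPM scales and -0.14 to -0.03 with 1 library left out, where no colour term was fitted. Fits that leave out a library assume that the lone library varies like the others. The cause of these changes was not tested.

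The replicate numbers were used as a block in 1 alternative. Deviations of the libraries numbered 1 from their group means correlated at r = 0.455 between the colours over 13177 genes, which are not independent, and with 2 pairs this does not show that a number marks a shared source. With the replicate block, edgeR called 934 of the 13177 genes by colour (679 higher, 255 lower), 9 of the 93 pathway genes and 2 of the 43. The share called was lower among the 43 than over all genes, and somewhat higher among the pathway genes. The 2 of the 43 were Gbp5 (1.34, edgeR adjusted p = 0.0126) and Oas3 (2.89, edgeR adjusted p = 0.0136), both higher in tdTomato+ cells. The median of the 43 under the block was 0.01.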
